A study of Mus musculus with 6 samples.

Results

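The 71 genes described here carry the symbols Mrpl or Mrps with a number and, apart from Mrps36, encode proteins of the mitochondrial ribosome. They were taken by symbol from the array annotation, out of 22180 genes measured through probe sets with exactly 1 gene symbol, and a gene with several such probe sets was read from the brightest of them. Cells had been sorted from mouse gliomas with an antibody against CD105 (endoglin), are labelled as tumor-associated endothelial cells, and were held in medium conditioned by glioma cells for 12 h. The 6 Affymetrix Mouse Gene 2.0 ST arrays came from 6 mice, 1 array per mouse. Both groups carried floxed alleles of Pfn1 (fl/fl) together with its Y129F form, a change in the actin-binding protein profilin-1 that the series studies for its loss of a phosphorylation site. Mice 1, 3 and 4 also carried Tie2-Cre, in which the promoter of the endothelial receptor gene Tek drives the recombinase, and which is known to act in some blood cells too. Mice 6, 7 and 10 had the same Pfn1 alleles and no Cre. Ages are not given in the sources used here.

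Mitochondria keep a ribosome of their own, which makes the few proteins that mitochondrial DNA encodes, all of them subunits of the respiratory chain and ATP synthase. Its RNAs are mitochondrial, but every one of its proteins is encoded in the nucleus, made in the cytosol and imported. Some of these proteins descend from the bacterial ribosome and the others were added in the mitochondrial lineage. In endothelial cells, which draw much of their ATP from glycolysis, mitochondria are known mostly for signalling and for supplying building blocks.

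Values are log2 of the intensities that the authors deposited after RMA normalization, and a change is the mean with Tie2-Cre minus the mean without Cre, with the standard error (SE) of a limma fit over all 22180 genes. A gene was counted as higher or lower when its Benjamini-Hochberg adjusted p, over all genes, lay under 0.05. Arrays of the same group had a Pearson's r of 0.994 to 0.996 over all genes, and pairs from the 2 groups 0.986 to 0.988. Pfn1 lay at 12.41, 12.41 and 12.42 with Tie2-Cre and at 12.38, 12.34 and 12.39 without Cre (change 0.037, limma adjusted p 0.776), a probe set that cannot tell the Y129F form from the native one. The sorting antigen Eng was lower with Tie2-Cre, at 11.72 to 11.79 against 12.03 to 12.09 (change -0.30, SE 0.064, limma adjusted p 0.0217). Of the other endothelial markers, Cdh5 lay at 6.61 to 6.90 with Tie2-Cre and 6.96 to 7.06 without, Pecam1 at 6.08 to 6.43 and 6.09 to 6.37, and Tek at 5.45 to 5.83 and 5.69 to 6.03, and none of these passed, where the median gene lay at 7.08 to 7.14. Among the 18 endothelial markers, Cd34 was lower as well (change -1.53, SE 0.071, limma adjusted p 1.62e-05) and Flt1, a VEGF receptor, was higher (change 1.11, SE 0.25, limma adjusted p 0.0272), both named after their values were seen. Over the 18 endothelial markers the mean was 6.84 to 6.95 with Tie2-Cre and 6.93 to 6.95 without Cre, which overlap. Over 9 glioma, astrocyte and progenitor markers it was 7.42 to 7.51 with Tie2-Cre and 7.13 to 7.25 without Cre. The mean of 10 fibroblast markers was 10.38 to 10.53 with Tie2-Cre and 9.57 to 9.61 without Cre. That of 12 pericyte and smooth muscle markers was 9.78 to 10.21 and 9.27 to 9.34. The mean of 19 cell cycle markers was 8.15 to 8.36 with Tie2-Cre and 8.93 to 9.06 without Cre, and that of 14 macrophage and microglia markers 6.61 to 6.70 and 6.79 to 6.85. Xist, an RNA made in female cells, was at 5.36 to 6.06 in the Tie2-Cre mice against 11.16 to 11.44, so genotype and sex cannot be told apart in any comparison here. The part of these marker lists in the values below was not tested.

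Mitochondrial ribosomal protein genes differed little between the groups. Of the 71, 6 were lower with Tie2-Cre, 0 were higher and 65 did not pass the threshold. The 6 were Mrpl13, Mrpl42, Mrpl50, Mrps10, Mrps12 and Mrps23, and they were 1.19-fold to 1.32-fold lower. Their share of 8.45% lies near the background, since 7.17% of all genes were lower, and 4.78% of all genes were higher. No member changed by 1.5-fold or more, which 977 of all genes did. The 95% confidence interval of the change lay within 1.5-fold in either direction for 70 of the 71 members and for 87.5% of all genes. The exception was Mrps10, whose interval ran from -0.61 to -0.18.

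Beyond the called genes, small shifts below 0 were common among the members. The change was below 0 in 54 of 71 (76.1%), against 51.1% of all genes, and the median change was -0.097 (quartiles -0.21 and -0.0074), against -0.0042 over all genes. At an unadjusted p under 0.05, limma found 17 members lower (23.9%) and 0 higher, where 14.3% of all genes were lower and 10.6% higher. The 3 arrays of each group did not overlap in 22 members (31.0%), all 22 of them lower with Tie2-Cre, where 17.5% of all genes did so in that direction and 13.6% in the other. These shares describe genes read on the same 6 arrays, which are not independent of each other, and their difference from the other genes was not tested. In bulk RNA, fewer cells of a type and less RNA per cell cannot be told apart.

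**Figure D1:**
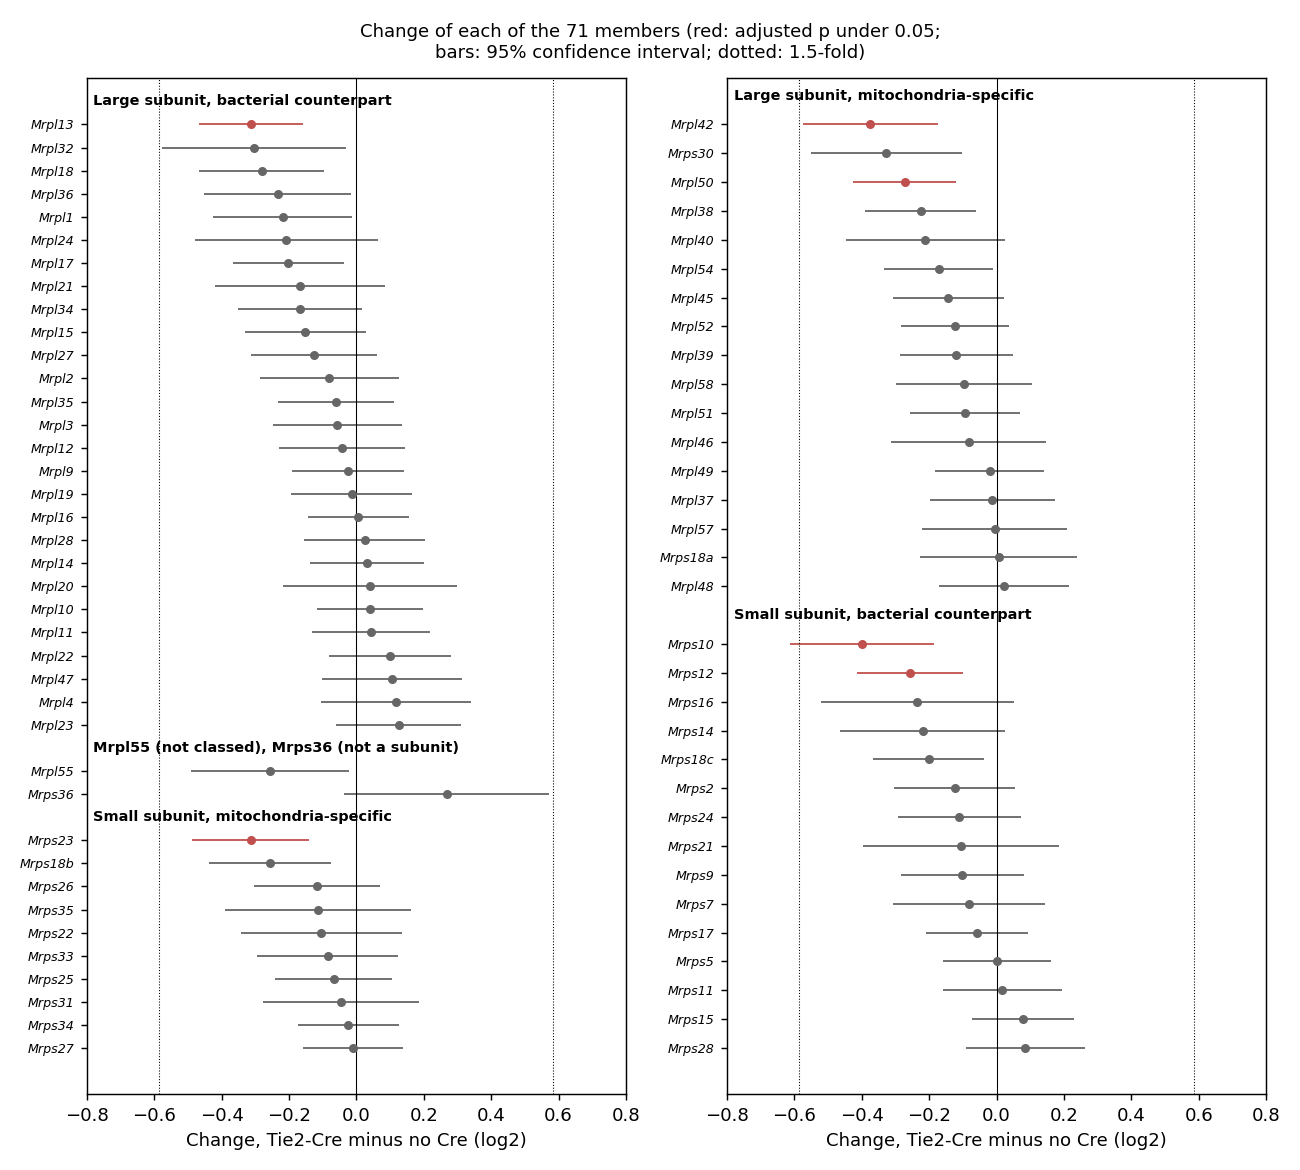
Change of each of the 71 members, Tie2-Cre minus no Cre on the log2 scale, grouped by subunit and origin of the protein; points are the limma estimates, bars the 95% confidence intervals and dotted lines mark 1.5-fold. The 6 red points, which passed the adjusted threshold, lie between -0.40 and -0.26, and the middle 50% of all 71 points lie between -0.21 and -0.0074.

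The large subunit holds the catalytic centre that joins amino acids and the tunnel through which the new chain leaves. Of its 45 measured members, 3 were lower (6.67%, against 7.17% of all genes), 0 higher and 42 did not pass. Their median change was -0.094. Mrpl13, a protein with a bacterial counterpart, lay at 9.05, 9.13 and 9.08 with Tie2-Cre (mice 1, 3 and 4) and at 9.45, 9.41 and 9.33 without Cre (mice 6, 7 and 10). All 3 Tie2-Cre mice were below all 3 others, and the mean was 9.08 ± 0.041 (SD, n = 3 mice) against 9.40 ± 0.059 (SD, n = 3 mice), a change of -0.31 (SE 0.067, limma adjusted p 0.0215).

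Mrpl42 and Mrpl50 encode large-subunit proteins that bacteria lack. For Mrpl42 the levels were 8.74, 8.75 and 8.70 with Tie2-Cre and 9.05, 9.27 and 8.99 without Cre. The groups did not overlap, mouse 7 stood highest, and the change was -0.37 (SE 0.086, limma adjusted p 0.0281). Mrpl50 lay at 9.09, 9.19 and 9.17 with Tie2-Cre and at 9.40, 9.47 and 9.40 without Cre. Here too each Tie2-Cre mouse was below each mouse without Cre, with a change of -0.27 (SE 0.067, limma adjusted p 0.0354).

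The small subunit reads the messenger RNA. Here 3 of 25 members were lower (12%, against 7.17% of all genes) and 0 higher, and 22 did not pass. The median change was -0.10. Mrps10, a protein of the head of the subunit with a bacterial counterpart, lay at 8.64, 8.93 and 8.77 with Tie2-Cre and at 9.18, 9.28 and 9.08 without Cre. This was the largest change below 0 among the members, -0.40 (SE 0.093, limma adjusted p 0.0293), and its 3 Tie2-Cre mice were also more spread (SD 0.14) than those of Mrpl13. Mrps12, which belongs to the decoding centre, lay at 7.33, 7.46 and 7.42 with Tie2-Cre and at 7.70, 7.64 and 7.64 without Cre. Its change of -0.26 (SE 0.068, limma adjusted p 0.0475) was the smallest of the 6 and the nearest to the threshold. Mrps23, which has no bacterial counterpart, lay at 8.53, 8.69 and 8.63 with Tie2-Cre and at 8.91, 9.01 and 8.88 without Cre. Again the groups did not overlap, and the change was -0.31 (SE 0.075, limma adjusted p 0.0319).

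**Figure D2:**
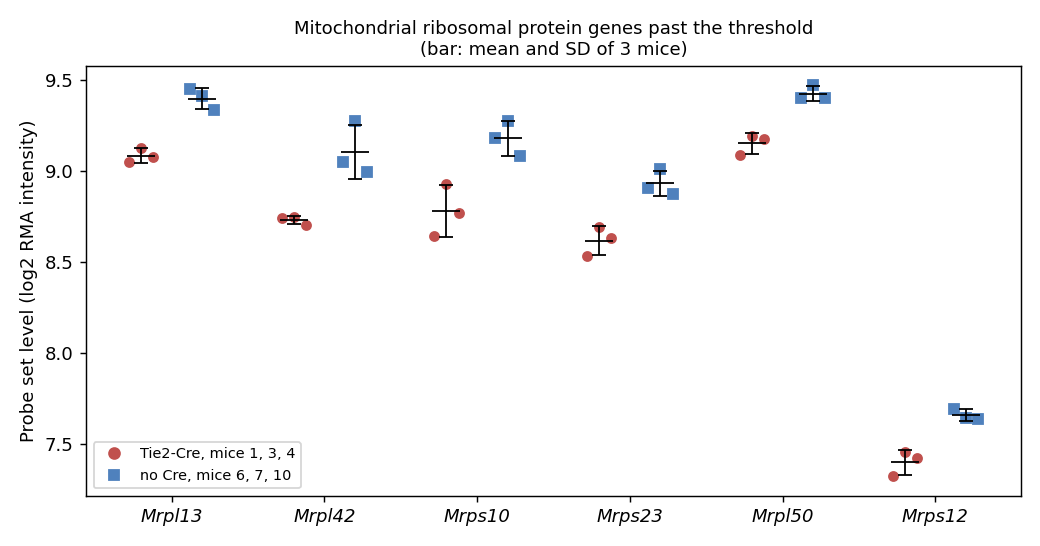
Levels of the 6 members past the threshold in each mouse, as log2 RMA intensity on an axis that does not start at 0; circles are Tie2-Cre mice, squares mice without Cre, and the black bars give the mean and SD of 3 mice. In each of the 6 genes the Tie2-Cre points lie below those without Cre, with gaps between the group means of 0.26 to 0.40.

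The 6 calls rested on all 6 arrays. Without Tie2-Cre mouse 1, or without mouse 6 or 7 of the mice without Cre, 0 members passed (limma). At an unadjusted p under 0.05, 13, 12 and 11 were lower in these fits. Fewer of all genes were called lower as well, with 4.72%, 4.61% and 4.1% against 7.17% on all 6 arrays. Leaving out mouse 3 or mouse 10 gave 3 lower members each (4.23%, against 5.59% and 4.63% of all genes). Without Tie2-Cre mouse 4 the 1 lower member (1.41%, against 5.65% of all genes) was Mrps30, which is none of the 6. Any mouse left out ended the calls of Mrpl50 (adjusted p from 0.0656 up to 0.119) and Mrps12 (0.0725 up to 0.149), and the highest adjusted p of the other 4 was 0.111. The direction of the 6 was kept in each of these fits, and the changes ran from -0.47 to -0.22 over all alternatives.

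Just beyond the threshold on the lower side stood Mrpl18, Mrps30 and Mrps18b. Mrpl18 lay at 7.97, 8.15 and 8.04 with Tie2-Cre and at 8.23, 8.41 and 8.37 without Cre (change -0.28, SE 0.081, limma adjusted p 0.0632). Mrps30, which despite its symbol sits in the large subunit, lay at 7.42, 7.68 and 7.78 against 7.97, 7.94 and 7.95. Mouse 1 was the low one among the Tie2-Cre mice, and the change was -0.33 (SE 0.097, limma adjusted p 0.0708). It passed without Tie2-Cre mouse 4 (change -0.40, limma adjusted p 0.0431). Mrps18b lay at 8.98, 9.0 and 9.08 against 9.25, 9.18 and 9.39 (change -0.26, SE 0.078, limma adjusted p 0.0787).

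On the upper side the members nearest to the threshold were far from it. Mrps36 had the highest change of all 71, 0.27 (SE 0.13, limma adjusted p 0.261). It was also the dimmest of the 71 probe sets and among the 3 with the largest spread, with levels of 5.36, 5.45 and 5.01 with Tie2-Cre and of 4.94, 4.89 and 5.19 without Cre, which overlap. Its product, once counted as a ribosomal protein, is now known as a subunit of the 2-oxoglutarate dehydrogenase complex, so it was set apart from both subunits here. Mrpl23 lay at 9.40, 9.55 and 9.31 against 9.35, 9.29 and 9.25 (change 0.13, adjusted p 0.405), and Mrpl22 at 6.64, 6.76 and 6.64 against 6.65, 6.47 and 6.62 (change 0.10, adjusted p 0.498). Both encode proteins at the exit of the peptide tunnel. Mrpl24 and Mrpl45, of the same site, had changes of -0.21 and -0.14, and none of the 4 passed (limma).

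Brightness of a probe set depends on its probes, so the means over all arrays, from 5.14 for Mrps36 to 11.04 for Mrpl52, do not rank the genes by abundance. The 3 brightest were Mrpl52, Mrpl54 and Mrps15, with changes of -0.12, -0.17 and 0.078. With Mrps36, the 3 dimmest were Mrps14 (6.13, change -0.22) and Mrpl27 (6.30, change -0.13). None of these passed the threshold. The spread within groups was largest for Mrps36, Mrps21 and Mrps16, where 1 Tie2-Cre mouse stood off. Mrps21 lay at 7.90 in mouse 1 and at 7.43 and 7.49 in mice 3 and 4, and Mrps16 at 7.44 in mouse 1 and at 7.78 and 7.93 in the other two.

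Calls were spread over proteins with and without a bacterial counterpart, 3 in each class. Of 42 members with a counterpart, 3 were lower (7.14%), 28 had a change below 0 and the median was -0.080. Of 27 without one, 3 were lower (11.1%), 25 had a change below 0 and the median was -0.10. Among all genes 7.17% were lower and 51.1% had a change below 0. The mitochondria-specific proteins of the small subunit had changes below 0 in 10 of 10, with a median of -0.095, and those of the large subunit in 15 of 17, with a median of -0.12. No test of these differences was made. The stalk proteins that recruit translation factors showed small changes, with 0.041 for Mrpl10, -0.043 for Mrpl12, which in human cells also binds the mitochondrial RNA polymerase, and 0.044 for Mrpl11 at the stalk base. Mrpl58, a hydrolase that frees stalled chains, changed by -0.097, and Mrpl32, which the protease subunit Afg3l2 helps to mature, by -0.30 (SE 0.12), and neither passed (limma adjusted p 0.566 and 0.155).

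A trio of genes encodes relatives of 1 bacterial protein of the small subunit. Mrps18a, whose product is in the large subunit, changed by 0.0060 (SE 0.10), while Mrps18b and Mrps18c, of the small subunit, where only the second takes the bacterial protein's place, changed by -0.26 and -0.20 (limma adjusted p 0.981, 0.0787 and 0.122). A second, dimmer probe set of Mrps18c pointed the other way (0.30, SE 0.15), and that of Mrps18b gave -0.070. Of all members, 9 had more than 1 probe set with a single symbol. In Mrpl10, Mrpl47 and Mrps18c the sign differed between the probe sets, and none of these passed. Another 7 genes, Mrpl30, Mrpl33, Mrpl41, Mrpl43, Mrpl44, Mrpl53 and Mrps6, were listed only on probe sets that carry a further symbol and are not among the 71.

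Mice differed within the groups as well. The median over the members of the level minus the gene's own mean was -0.071, 0.013 and -0.060 in Tie2-Cre mice 1, 3 and 4, and 0.034, 0.060 and 0.040 in mice 6, 7 and 10 without Cre. Mouse 3 thus lay nearer to the mice without Cre than mice 1 and 4 did. Mouse 1 was the lowest of the 6 in 29 members and mouse 4 in 22, mouse 3 in 5, and mouse 7 was the highest in 27. Without mouse 3 the median change was -0.13 and 59 members were below 0, and without mouse 1 it was -0.069 and 50 were below 0. For all genes the same medians per mouse lay between -0.014 and 0.022.

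**Figure D3:**
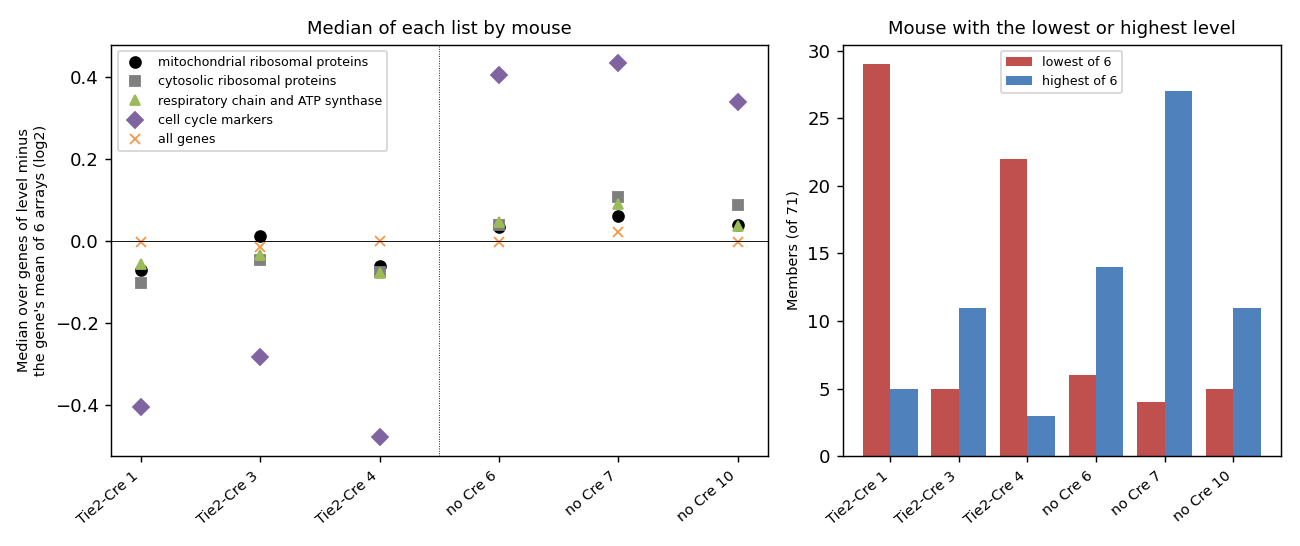
Left, the median over each gene list of the level minus the gene's mean of 6 arrays (log2) in each mouse; right, the number of the 71 members for which a mouse had the lowest or the highest level of the 6. Members sat at -0.071 to 0.013 in Tie2-Cre mice and at 0.034 to 0.060 in mice without Cre, and the cell cycle markers at -0.48 to -0.28 and at 0.34 to 0.43.

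Promoters of these genes are known to be compact and to carry sites for the activators NRF1, GABP (an ETS factor) and YY1, which serve many nuclear genes of mitochondria. RefSeq promoters (GRCm38.p6, 250 bases before to 50 after a start) were found for 62 of the 71 members, in 68 entries. They were searched on both strands for the palindromic NRF1 motif, for CCGGAAG (ETS), for AAGATGGCG (YY1) and for CCAAT. The ETS letters occurred in 33.8% of member promoters, against 8.86% of all promoters and 11.6% of those of protein-coding genes. NRF1 letters occurred in 16.2%, against 4.60% and 6.38%, and YY1 letters in 11.8%, against 1.40% and 1.83%. CCAAT, with 39.7% against 37.4% and 38.2%, was about as frequent as elsewhere. The 36 genes with at least 1 of the NRF1, ETS and YY1 letters had a median change of -0.11, and 3 of them were lower. The 26 genes with none had a median of -0.062, and 2 were lower. A match of letters is a description of the sequence and not a site shown to be bound.

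Of the 6 lower genes, 3 held such letters, and these sites are shown because the same letters are more frequent in promoters of the family than elsewhere. The capitals mark the YY1 letters in Mrpl42 (chr10:95501903-95501932, minus strand) and the ETS letters, as found on either strand, in Mrps23 (chr11:88204392-88204421, plus strand) and Mrps12 (chr7:28741802-28741831, minus strand).
Mrpl42: agattgaagcAAGATGGCGagcgcgcggtg
Mrps23: tgccgcttccgCTTCCGGtaacagcccgag
Mrps12: aaggaggaaccCCGGAAGgggctggaggta
All 3 matches begin after the start of the gene, by 27, 15 and 1 bases. In the windows of Mrps10 and Mrpl50 CCAAT was found and none of the other letters, and Mrpl13 is not in the promoter table.

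Many members start close to a neighbour on the other strand. Within 1000 bases, 23 had a divergent neighbour. Of these 23 neighbours 5 were lower with Tie2-Cre and 0 higher, while 18 did not pass, with a median change of -0.026. Of all genes, 7.17% were lower and 4.78% higher, and the difference was not tested. Mrpl46 and Mrps11 are neighbours of each other, so the neighbours include members. Mrps12 starts 147 bases from Sars2, the mitochondrial seryl-tRNA synthetase gene, and Mrpl50 starts 93 bases from Zfp189. The stretches between the starts are shown because each lies before both genes of a pair, with CCAAT, on either strand, in capitals (GRCm38.p6, chr7:28741822-28741967 and chr4:49521084-49521175, both on the minus strand, the strand of the member).
Mrps12 to Sars2: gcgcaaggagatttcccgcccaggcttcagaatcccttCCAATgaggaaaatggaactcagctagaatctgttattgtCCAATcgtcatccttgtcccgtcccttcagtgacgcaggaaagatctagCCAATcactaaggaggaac
Mrpl50 to Zfp189: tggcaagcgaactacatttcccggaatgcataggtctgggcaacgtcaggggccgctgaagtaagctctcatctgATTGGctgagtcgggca
Sars2 lay at 7.15, 7.13 and 7.17 with Tie2-Cre and at 7.05, 7.04 and 6.94 without Cre, so its groups were ordered the other way from those of Mrps12, and its own change of 0.14 did not pass (limma adjusted p 0.251). Zfp189 lay at 8.47, 8.68 and 8.69 against 8.60, 8.69 and 8.52, which overlap. The change of the member minus that of its neighbour was -0.39 for Mrps12 and Sars2 and -0.28 for Mrpl50 and Zfp189. These pairs are shown because the member was lower, so the differences are a description with no test.

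Further parts of the mitochondrial translation system were read from lists of genes with known roles. Of the mitoribosomal proteins without an Mrp symbol, Ptcd3, Gadd45gip1 and Dap3 were measured, and the list also held Mrpl58 under an older name. Ptcd3, an RNA-binding protein of the small subunit, lay at 8.65, 8.89 and 8.74 with Tie2-Cre and at 9.22, 9.21 and 9.11 without Cre. Its change of -0.42 (SE 0.082, limma adjusted p 0.0140) was a little larger than that of Mrps10. Leaving out no Cre mouse 6 or 7 ended the call (limma adjusted p at most 0.0556). Taking the mean of its probe sets ended it too (limma adjusted p 0.0651). Over all alternatives the change of Ptcd3 ran from -0.48 to -0.29. Gadd45gip1, a protein near the tunnel exit, changed by -0.26 and Dap3, a GTP-binding protein of the small subunit, by -0.20, and neither passed (limma adjusted p 0.0911 and 0.258).

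Assembly factors and enzymes that modify the ribosomal RNAs moved both ways. Of 28, 2 were higher (7.14%), 2 lower (7.14%) and 24 did not pass, with a median change of -0.014. Among all genes 4.78% were higher and 7.17% lower. The lower ones were Afg3l2 (-0.30, SE 0.069, limma adjusted p 0.0295) and Tfb1m (-0.35, SE 0.086, limma adjusted p 0.0361), which methylates the RNA of the small subunit. Eral1, a chaperone of that RNA, was higher (0.27, SE 0.067, limma adjusted p 0.0391), with 8.47, 8.49 and 8.41 against 8.13, 8.19 and 8.25. Mrm1, which methylates the RNA of the large subunit, was higher too (0.34, SE 0.089, limma adjusted p 0.0439), with 6.95, 6.91 and 7.10 against 6.72, 6.50 and 6.71. Eral1 and Mrm1 lost their calls in every fit with 1 mouse left out (highest adjusted p 0.135 and 0.130). Afg3l2 kept its call only with Tie2-Cre mouse 3 left out and Tfb1m only with Tie2-Cre mouse 4 left out (highest adjusted p 0.108 and 0.117).

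Among 15 translation factors, 1 was lower (6.67%, against 7.17% of all genes), 0 higher and 14 did not pass. The median change was -0.044. Tufm, the elongation factor that brings aminoacyl-tRNA to the ribosome, lay at 10.18, 10.43 and 10.37 with Tie2-Cre and at 10.69, 10.77 and 10.68 without Cre. Its change was -0.39 (SE 0.083, limma adjusted p 0.0212). Leaving out Tie2-Cre mouse 1 or any mouse without Cre ended this call (highest adjusted p 0.0792). Of 19 genes for mitochondrial aminoacyl-tRNA synthetases and the related amidotransferase, 0 passed in either direction by limma, 1 was higher and 0 lower at an unadjusted p under 0.05, and the median was -0.025. The nearest to the threshold was Gatc (0.20, SE 0.069, limma adjusted p 0.104).

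Genes that transcribe mitochondrial DNA and process its RNA had 3 lower members of 13 (23.1%, against 7.17% of all genes) and 0 higher ones. The remaining 10 did not pass, and the median change was -0.20. The difference from all genes was not tested. Tfam, which packs mitochondrial DNA and starts its transcription, lay at 7.21, 7.36 and 7.12 with Tie2-Cre and at 7.58, 7.79 and 7.68 without Cre (change -0.46, SE 0.089, limma adjusted p 0.0141), and leaving out no Cre mouse 7 ended the call (adjusted p 0.0549). The transcription factor Tfb2m (-0.34, SE 0.075, limma adjusted p 0.0236) and Prorp, the nuclease that trims transfer RNAs (-0.46, SE 0.11, limma adjusted p 0.0297), were lower as well. The call of Tfb2m held only when no Cre mouse 10 was the one left out, and that of Prorp only when Tie2-Cre mouse 3 was (highest adjusted p 0.0812 and 0.0970).

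Of 10 regulators of mitochondrial biogenesis, 2 were lower (20.0%, against 7.17% of all genes) and 0 higher, while 8 did not pass. The median change was -0.014, with 5 of 10 changes below 0, and the difference from all genes was not tested. Myc, a transcription factor that drives growth and ribosome production, lay at 8.62, 8.74 and 8.76 with Tie2-Cre and at 9.14, 9.26 and 9.30 without Cre. Its change of -0.53 (SE 0.076, limma adjusted p 0.00353) passed in every fit that left out 1 mouse (adjusted p from 0.00868 up to 0.0195). Gabpa, the DNA-binding subunit of GABP, lay at 8.50, 8.71 and 8.64 against 8.95, 9.0 and 8.90 (change -0.34, SE 0.078, limma adjusted p 0.0295), a call that held only when Tie2-Cre mouse 3 was left out (highest adjusted p 0.103). Gabpb1 and Gabpb2, which encode its partner subunits, changed by -0.19 and 0.11 and did not pass (limma adjusted p 0.185 and 0.370).

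Cytosolic ribosomal proteins and the subunits of the respiratory chain and ATP synthase give the nearest comparison. The first build the other ribosome of the cell, and the chain and synthase also hold the products of the mitochondrial ribosome. Only nuclear genes were taken for the second list, so those products are not among them. Of 64 cytosolic ribosomal protein genes, 12 were lower (18.8%), 0 higher, and the median change was -0.16, with 85.9% below 0. Of 77 respiratory chain and ATP synthase genes, 10 were lower (13.0%), 1 higher, and the median was -0.13, with 81.8% below 0. The members had 8.45% lower, a median of -0.097 and 76.1% below 0. Among the 3 lists these were the smallest shares and medians in size, a difference that was not tested. For all genes the shares were 7.17% lower and 51.1% below 0, with a median of -0.0042. All 19 cell cycle markers were lower on the same arrays, with a median of -0.82, and their part in these values was not tested. Leaving out 1 mouse gave 4 to 10 lower cytosolic genes, with 6, 4 and 5 for Tie2-Cre mouse 1 and no Cre mice 7 and 10. It gave 2 to 7 lower respiratory genes, with 3 each for Tie2-Cre mice 1 and 4 and no Cre mouse 6, and 2 each for no Cre mice 7 and 10.

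**Figure D4:**
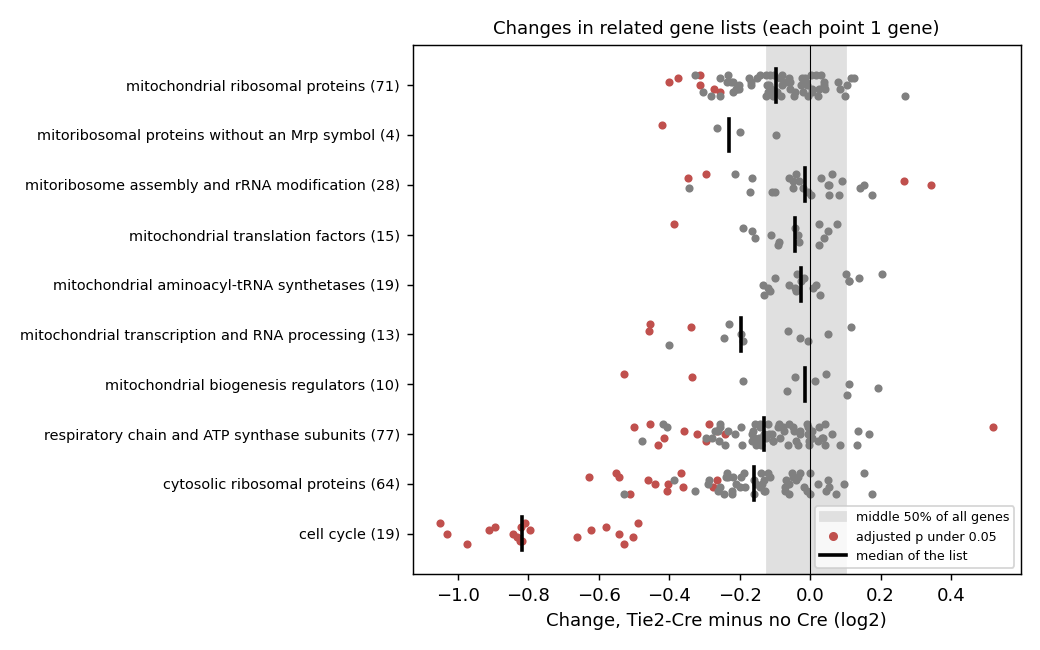
Change of each gene (Tie2-Cre minus no Cre, log2) in the 71 members and in 9 related lists, with the number of genes in brackets; red points passed the adjusted threshold, black bars are list medians and the grey band holds the middle 50% of all genes. The median of the members, -0.097, lies inside the band. Medians below that of the members are those of the respiratory chain (-0.13), the cytosolic ribosomal proteins (-0.16) and mitochondrial transcription and RNA processing (-0.20). Lower still are the list of mitoribosomal proteins without an Mrp symbol (-0.23, with the member Mrpl58 among its 4 genes) and the cell cycle markers (-0.82).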

How the data were processed

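Biotin-labelled total RNA was read on Affymetrix Mouse Gene 2.0 ST arrays. The authors made the deposited intensity values by RMA, per the labels; the program that the submitters' processing notes name is Affymetrix Expression Console (version not given in the sources used here). RMA includes background correction and quantile normalization. The intensities are linear, from 5.13 to 17822, and no detection call came with them. Changes of dim genes may be understated, which was not tested. The number of arrays limits the precision.

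From the deposited values, log2 was taken with no further scaling. Of 41345 probe sets, 23521 had 1 gene symbol in the array annotation, 1814 several and 16010 none listed, and taking the brightest per gene left 22180 genes. The 2 groups were fitted in R 4.3.3 by limma (version 3.58.1, lmFit with eBayes, two-sided), after reading with the R package data.table (version 1.17.8), and the fit was tested on simulated data. Subunit and origin of each protein were assigned by hand from its known place in the ribosome.

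Named were all members past the threshold, the 3 nearest to it on either side, and the 3 brightest, dimmest and most spread. Of the mitochondrial lists, up to 6 called genes each were named, and in some lists up to 2 that did not pass. For the assembly, translation factor and transcription lists, only called genes are described. Cytosolic ribosomal and respiratory chain genes were only counted, and other members are named by role. The members and lists were chosen with earlier results of these data known. Of the list genes, Chchd1, Aurkaip1, Trmt61b, Mtrfr, Slirp, Pdf and Ccnb1 were not analysed here. Among the marker lists, 1 of 18 endothelial genes was higher and 2 were lower, 5 and 1 of 10 fibroblast, 6 and 0 of 12 pericyte and smooth muscle, 0 and 3 of 14 macrophage, 3 and 0 of 9 glioma and astrocyte, and 3 and 1 of 4 sex-linked genes. Alternatives were 2 filters on dim genes, all probe sets, 2 further normalizations, the mean of a gene's probe sets, eBayes with trend and robust, array weights, an unadjusted p with a 1.5-fold change, and leaving out each mouse.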

Additional observations from a re-analysis of the deposited data

How the results depend on the processing

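The 6 lower members became 10 with the dimmest 33.3% of genes left out (14.7% of members against 13.2% of all genes). They were also 10 with eBayes with trend and robust (14.1% against 9.56%). In both cases these were the 6 with Mrpl18, Mrpl38, Mrps18b and Mrps30. With all 41345 probe sets tested 0 members passed, where 3.03% of the probe sets were lower. At an unadjusted p under 0.05, 12 members were lower there (limma). With 1.5-fold asked beside an unadjusted p under 0.05, 0 members passed, against 2.48% of all genes lower. Leaving out 1 mouse gave 0 to 3 lower members (0 to 4.23%), where 4.1% to 5.65% of all genes were lower. The other settings gave 4 to 7 (5.63% to 9.86%), where 6.29% to 8.88% of all genes were lower. In these fits 0 members were higher, and their median change lay between -0.13 and -0.069, with 49 to 59 members below 0. Of 282 changes of named members under alternatives, 229 kept their side of the threshold, 45 lost a call and 8 gained one, and 0 called values turned sign. Counts of all genes were 424 higher and 551 lower with the unadjusted rule, 634 to 676 higher without a mouse of the no Cre group, and 910, 1022, 1026 and 1046 lower without no Cre mouse 7, 6 or 10 or Tie2-Cre mouse 1. The lower cytosolic ribosomal genes ranged from 1 to 24 and the lower respiratory chain genes from 0 to 20. In the smaller mitochondrial lists the lower genes ranged from 0 to 4 and the higher ones from 0 to 2. No paired analysis was possible because the mouse numbers differ between the groups. The cause of these shifts was not tested. With 3 mice a group, changes of the size seen in most members lie within their confidence intervals of 0.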
